A study of Homo sapiens with 21 samples.

Results

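The genes examined here are those of PINK1-parkin mitophagy, the removal of damaged mitochondria by autophagy, together with genes that join, divide and move mitochondria. The list held 48 genes chosen by their known function, and 47 of them had a probe set of their own among the 18374 genes with a probe set that names 1 gene. TOMM7 was measured only by a probe set that it shares with another gene. Each gene was read from its brightest probe set over the 21 arrays. The samples were total RNA of U-87MG, an established human glioblastoma line, made into clones that stably express parkin or carry the empty vector. The 3 vector clones were V8, V17 and V22, and the 3 parkin clones were PK7, PK19 and PK25. V22 was hybridised to 6 arrays and each other clone to 3. The labels give each array a set number and a scanner file name with 1 of 2 prefixes: the vector sets 1 to 3 carry one prefix (called the first), and the parkin clones with V22 sets 4 to 6 carry the other (the second). V22 was therefore the only vector clone on both, and each clone was compared with the V22 arrays of its own prefix. Each line is 1 clone, and nothing in the labels says that the arrays of a clone came from separate cultures, so p-values between clones measure only the spread between these arrays. RNA of the gene that was put in is not reported here.

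PINK1 is a kinase that is imported and degraded in healthy mitochondria and builds up on the outer membrane of damaged ones, where it phosphorylates ubiquitin and activates the ubiquitin ligase parkin. Parkin then ubiquitinates outer membrane proteins such as mitofusins, Miro proteins, VDAC channels and subunits of the TOM import complex. Adaptor proteins bind the ubiquitin chains and, through lipidated ATG8 proteins, bring the mitochondrion to the growing autophagosome, while deubiquitinases oppose the chains. Much of this pathway is regulated on proteins, and the arrays measured RNA only.

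The median log2 intensity of the arrays lay between 6.21 and 6.37, and no 2 arrays held identical values. Of the fixed markers of the line, VIM, CD44, TNC and FN1 were all above the 97th percentile of the probe sets in their mean over groups. The astrocyte markers GFAP, at the 50.4th percentile, and S100B, at the 18.3rd percentile, were not, and NES and CHI3L1 were at the 66.8th and 91.1st, CHI3L1 varying in group mean from 8.12 in V22 of the second prefix to 12.0 in PK7. Of the leukocyte markers, PTPRC, CD14, CD3E and CD79A were between the 8.17th and 41st percentile, and CD68 was at the 98.2nd. The RNA is from bulk cultures, in which fewer expressing cells and less RNA per cell cannot be told apart.

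PK7 and PK19 differed from V22 in a minority of these genes, and PK25 in none that passed the test. PK7 had 6 members higher and 4 lower than V22 at a limma adjusted p under 0.05, PK19 had 10 higher and 0 lower, and PK25 had 0. Those higher in PK7 were 2 adaptors, 2 ATG8 genes and 2 genes of autophagosome formation. Those higher in PK19 were 3 adaptors, 2 ATG8 genes, 3 genes of autophagosome formation, LRRK2 and DNM1L. Those lower in PK7 were the import genes TOMM22 and TOMM40, the adaptor CALCOCO2 and the receptor BCL2L13. The empty-vector clone V8 also differed from V22, with 6 members higher and 2 lower, while V17 differed in 0, with 0 members at an unadjusted p under 0.05. The 3 parkin clones were compared with the same 3 V22 arrays. These counts have to be read against the rest of the array. Of all probe sets, 15.2% were called in PK7, 14.0% in PK19, 1.37% in PK25, 8.00% in V8 and 0% in V17. The members were mostly well expressed: the mean log2 intensity was above 7 for 44 of them, and LRRK2, MAP1LC3A and MAP1LC3B were below. Among the 8719 genes above 7, 28.9% were called in PK7, 11.4% higher and 17.5% lower, against 22.7% of these 44 members, 13.6% higher and 9.09% lower. In PK19 the same share of all genes was 24.9%, 10.2% higher and 14.6% lower, against 18.2% of the members, all of them higher. In PK25 it was 2.49%, 0.700% higher and 1.79% lower, against 0% of the members, of which 8 had an unadjusted p under 0.05. In V8 it was 14.4%, 6.71% higher and 7.72% lower, against 15.9% of the members, 11.4% higher and 4.55% lower. With both directions together, the members were thus called no more often than other expressed genes in PK7 and PK19. By direction, the share called higher was above that of all genes in both clones, and the share called lower was below it. These differences between shares were not tested. Their median difference from V22 was 0.07 for PK7 and 0.16 for PK19, beside -0.05 and -0.02 for all genes above 7. For PK25 it was -0.0003 and for V8 it was 0.07, beside -0.03 and -0.01.

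**Figure D1:**
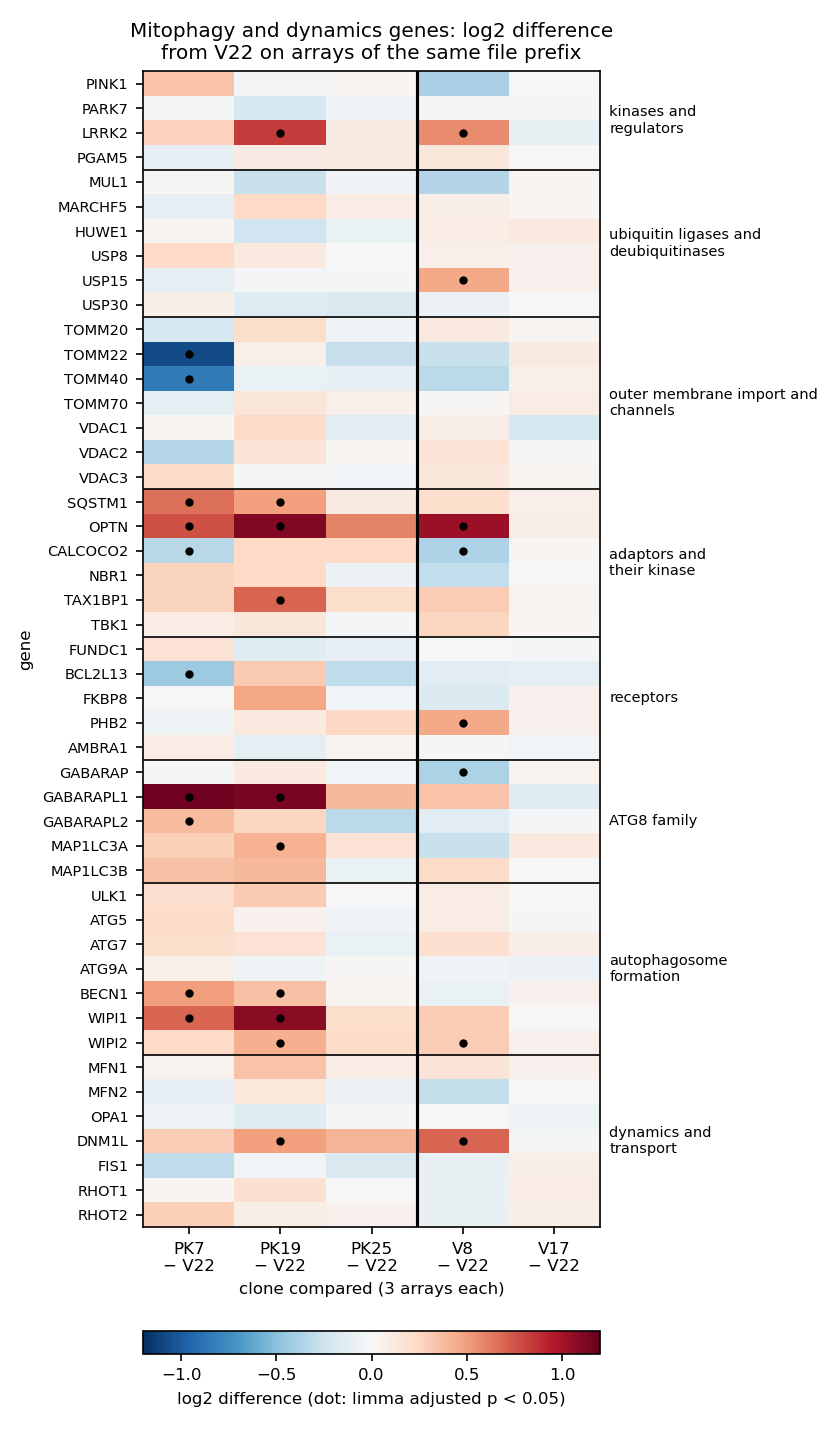
Log2 difference of each of the 47 members (rows, by role) from V22 for the 3 parkin clones and the other 2 vector clones (columns, 3 arrays each); red is higher than V22, blue is lower, and a dot marks a limma adjusted p under 0.05. GABARAPL1, WIPI1, OPTN and SQSTM1 are red with a dot in PK7 and PK19, TOMM22 and TOMM40 are blue with a dot in PK7, PK25 and V17 have no dot, and V8 has 8.

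Among the kinases and regulators, PINK1 itself did not pass the test in any clone. On the 3 arrays of PK7 its log2 intensity was 8.49, 8.49 and 8.40, on those of PK19 7.91, 8.32 and 8.07, and on those of PK25 8.17, 8.25 and 8.00. V22 of the same prefix gave 8.21, 7.94 and 8.20. V22 of the other prefix gave 8.15, 8.13 and 8.11, V17 gave 8.13, 8.16 and 8.10, and V8 gave 8.12, 7.22 and 7.88. The PK7 arrays were above all other arrays and the second V8 array was below all others. The PK7 difference was 0.34 ± 0.16 (limma SE, n = 3 arrays each; adjusted p = 0.183), and that of PK19 was -0.02 (adjusted p = 0.977). LRRK2, a kinase linked to familial Parkinson's disease, was the only gene of the 4 to pass. Its arrays read 6.06, 6.24 and 6.32 in PK19 and 5.37, 5.28 and 5.47 in V22, a difference of 0.84 ± 0.12 (SE; limma adjusted p = 2.81e-05). PK7, at 5.74, 5.54 and 5.66, lay just above V22 (0.28; 0.129), and PK25, at 5.49, 5.63 and 5.32, overlapped it. LRRK2 was also higher in V8, at 5.68, 5.93 and 5.71 against 5.17, 5.04 and 5.39 in V22, by 0.57 (adjusted p = 0.00336); V17 was at 5.29, 4.98 and 5.07. PARK7, the oxidative stress protein DJ-1, and PGAM5, a mitochondrial phosphatase, lay within 0.20 of V22 in every clone.

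None of the ubiquitin ligases and deubiquitinases passed the test in a parkin clone. MUL1 and MARCHF5, ligases anchored in the outer membrane, HUWE1, a large cytosolic ligase, and the deubiquitinases USP8, USP15 and USP30 differed from V22 by -0.27 to 0.24 in PK7, PK19 and PK25. USP15 was higher in V8 by 0.46 (limma adjusted p = 0.0211), a call that was lost without V8 replicate 2 (adjusted p = 0.0890) and without V22 replicate 1 (0.0680) or replicate 2 (0.0915).

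Subunits of the TOM complex, the gate through which nearly all nuclear-encoded mitochondrial proteins enter, were lower than V22 in PK7. TOMM22, a receptor subunit, read 10.12, 9.39 and 10.33 on the PK7 arrays and 11.22, 10.84 and 11.00 on the V22 arrays. All 3 PK7 arrays were below all 18 others. PK19 gave 11.20, 10.75 and 11.28, PK25 gave 10.86, 10.61 and 10.75, V8 gave 10.70, 10.60 and 10.54, V17 gave 10.91, 11.05 and 11.01, and V22 of the other prefix gave 10.97, 10.74 and 10.95. The PK7 level was 2.11-fold lower than V22 (log2 difference -1.07 ± 0.18, SE; limma adjusted p = 0.000236). RefSeq lists 6 pseudogenes of TOMM22, whose reads on an array cannot be told apart from the gene's where probes match both. A second probe set named for TOMM22 gave -0.85 in PK7 (adjusted p = 0.000570). TOMM40, which forms the channel, read 8.54, 8.29 and 8.55 in PK7 and 9.32, 9.28 and 9.31 in V22, 1.80-fold lower (-0.85 ± 0.13, SE; adjusted p = 0.000127). It gave 9.31, 8.96 and 9.40 in PK19, 9.32, 9.00 and 9.28 in PK25, 9.33, 8.93 and 9.33 in V8, 9.52, 9.50 and 9.71 in V17, and 9.64, 9.36 and 9.55 in V22 of the other prefix, so that here too the PK7 arrays were the lowest. V8 was itself at -0.27 for TOMM22 and -0.32 for TOMM40, neither of which passed. Less the difference of V8 from V22, neither gene passed in PK7 (TOMM22 -0.81, limma adjusted p = 0.0732, and TOMM40 -0.53, 0.121). The receptors TOMM20 and TOMM70 did not pass in any clone, at -0.20 and -0.11 in PK7. The voltage-dependent channels VDAC1, VDAC2 and VDAC3, outer membrane pores that parkin ubiquitinates, did not pass either, with VDAC2 at -0.34 in PK7 (adjusted p = 0.0635). A second, dimmer probe set of VDAC2 was 0.40 higher in V8 (0.0226), where the brighter one was at 0.16 (0.526). RefSeq lists 5 pseudogenes of VDAC2, so the limit given for TOMM22 holds for VDAC2 too. The shared probe set of TOMM7 differed from V22 by -0.01 in PK7, 0.25 in PK19 and 0.18 in PK25, none of which passed.

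**Figure D2:**
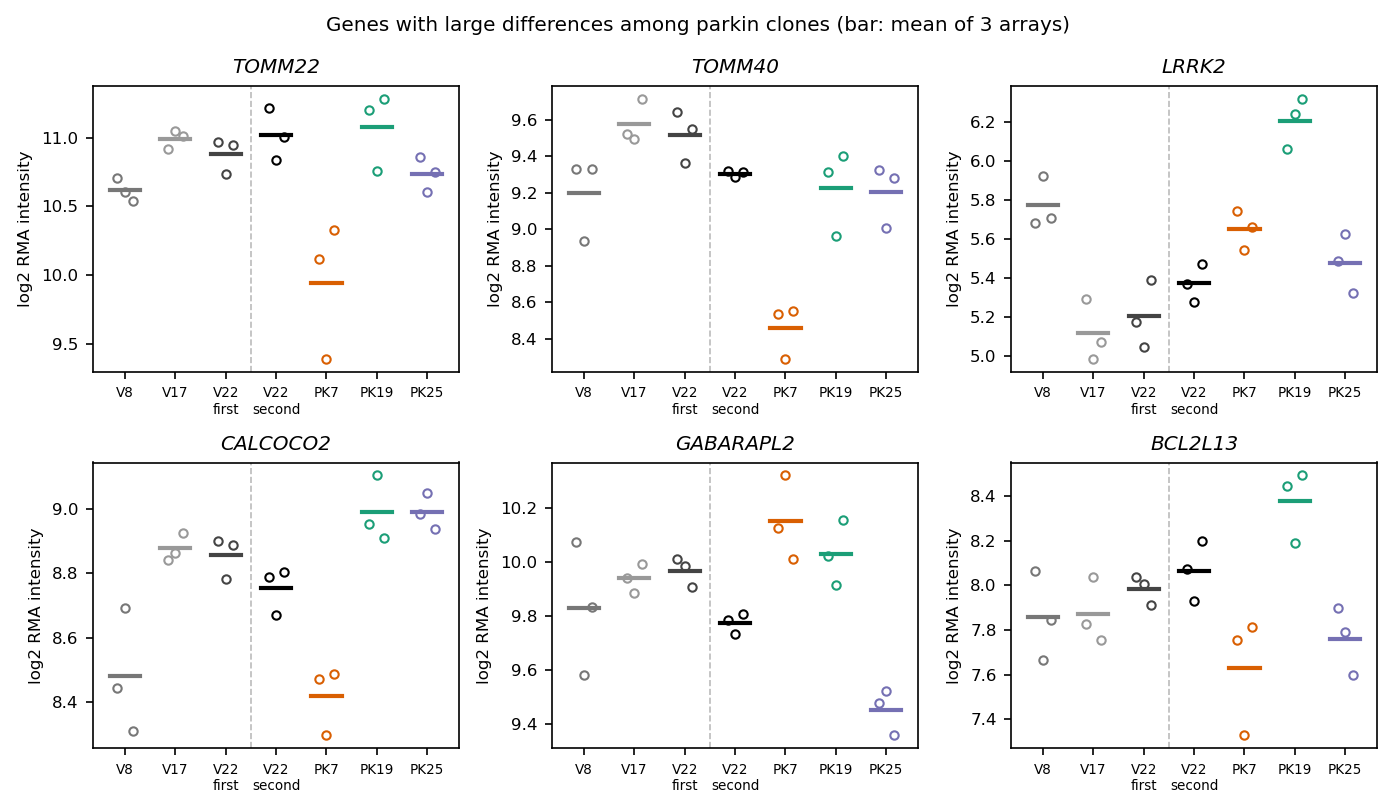
Log2 RMA intensity (vertical axes, each gene on its own scale) of 6 members on each of the 21 arrays by clone, with a bar at each mean of 3 arrays; the dashed line separates the 2 scanner file prefixes, V22 being on both (first and second). PK7 is the lowest clone for TOMM22 and TOMM40, PK19 the highest for LRRK2 and BCL2L13, and PK25 the lowest for GABARAPL2; CALCOCO2 is low in PK7 and in the vector clone V8.

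Of the ubiquitin-binding adaptors and their kinase, 3 of 6 passed in PK7 and 3 of 6 in PK19. SQSTM1, or p62, which carries ubiquitinated cargo to the autophagosome and clusters mitochondria, read 12.04, 11.95 and 12.09 in PK7 and 11.94, 11.76 and 11.86 in PK19, against 11.48, 11.21 and 11.41 in V22. PK25 gave 11.43, 11.53 and 11.46. V8 gave 11.74, 11.49 and 11.51, V17 gave 11.39, 11.54 and 11.38, and V22 of the other prefix gave 11.31, 11.48 and 11.33. Every PK7 and PK19 array was thus above every other array. The difference was 0.66 ± 0.10 in PK7 (SE; limma adjusted p = 6.05e-05), 0.49 in PK19 (0.00105) and 0.11 in PK25 (0.732). Less the difference of V8 from V22, that of SQSTM1 did not pass in PK7 (0.45, adjusted p = 0.0613) or PK19 (0.28, 0.3).

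OPTN encodes optineurin, a main adaptor of parkin-dependent mitophagy that TBK1 phosphorylates. It read 8.80, 9.37 and 8.86 in PK7, 9.24, 9.56 and 9.27 in PK19 and 8.80, 9.11 and 8.61 in PK25, against 8.32, 8.00 and 8.41 in V22, with no overlap. The differences were 0.76 (limma adjusted p = 0.00133), 1.11 (2.24e-05) and 0.60 (0.0588). The vector clone V8, however, stood at 9.12, 9.22 and 9.19, above V22 of its prefix at 8.15, 8.00 and 8.30 and V17 at 8.23, 8.31 and 8.14. V8 exceeded V22 by 1.02 (adjusted p = 0.000195), as much as the parkin clones did: less the V8 difference, that of PK19 was 0.09 ± 0.22 (SE; adjusted p = 0.915) and that of PK7 was -0.26 ± 0.22 (0.608).

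TAX1BP1, another adaptor, read 9.79, 10.09 and 9.99 in PK19 against 9.27, 9.18 and 9.32 in V22, a difference of 0.70 ± 0.12 (SE; limma adjusted p = 0.000301). It was at 9.46, 9.51 and 9.61 in PK7 and 9.52, 9.67 and 9.22 in PK25, and at 9.46, 9.70 and 9.47 in V8, 9.12, 9.39 and 9.31 in V17 and 9.05, 9.32 and 9.33 in V22 of the other prefix. CALCOCO2, or NDP52, went in different directions. It read 8.47, 8.30 and 8.49 in PK7, 8.95, 9.10 and 8.91 in PK19 and 8.98, 9.05 and 8.94 in PK25, against 8.79, 8.67 and 8.80 in V22. PK7 was lower by 0.33 on the log2 scale (-0.33; adjusted p = 0.0221), a call lost without V22 replicate 4 (0.0784), V22 replicate 6 (0.0856) or PK7 replicate 2 (0.104). V8, at 8.45, 8.69 and 8.31 against 8.90, 8.78 and 8.89 in V22 and 8.84, 8.86 and 8.93 in V17, was lower by a like amount (-0.37; adjusted p = 0.0191), which was lost without any 1 of V8 replicates 1 and 3 or V22 replicates 1 and 3 (0.0595 to 0.105). NBR1, a further adaptor, and TBK1 did not pass in any clone.

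Of the genes grouped as receptors, which link mitochondria to autophagosomes without parkin or act on the inner membrane, 1 passed in a parkin clone. BCL2L13 read 7.75, 7.33 and 7.81 in PK7 against 8.07, 7.93 and 8.20 in V22, a difference of -0.43 (limma adjusted p = 0.0337). The call was lost without V22 replicate 4 (0.0888), V22 replicate 6 (0.145) or PK7 replicate 2 (-0.28; 0.213). PHB2, an inner membrane protein that binds LC3 once the outer membrane is ruptured, was 0.46 higher in V8 (adjusted p = 0.00432) and at -0.05, 0.12 and 0.25 in PK7, PK19 and PK25. FUNDC1, FKBP8 and AMBRA1 did not pass, with FKBP8 at 0.46 in PK19 (0.0669).

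The ATG8 proteins are the small ubiquitin-like proteins that are joined to lipid on the autophagosome membrane. GABARAPL1 showed the largest difference of all members. Its arrays read 7.81, 7.73 and 7.53 in PK7 and 7.37, 7.86 and 7.76 in PK19, against 6.53, 6.28 and 6.76 in V22, and 6.64, 7.07 and 7.03 in PK25. PK7 was 2.25-fold higher than V22 (1.17 ± 0.16, SE; limma adjusted p = 3.50e-05) and PK19 2.21-fold higher (1.14; 3.36e-05), while PK25 at 0.39 did not pass (0.345). On the arrays of the other prefix it was at 7.40, 7.31 and 6.98 in V8, 6.99, 6.52 and 6.69 in V17 and 6.98, 6.77 and 6.89 in V22. The PK19 array at 7.37 thus lay just below the highest V8 array, and V22 itself was lower by 0.36 on the second prefix (adjusted p = 0.546). Less the V8 difference, GABARAPL1 was still higher in PK7 by 0.82 (adjusted p = 0.0411) and in PK19 by 0.80 (0.0427), in a comparison in which 5.21% of all probe sets were called for PK7, 6.22% for PK19 and 1.96% for PK25.

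GABARAPL2 read 10.13, 10.32 and 10.01 in PK7, 10.02, 9.91 and 10.15 in PK19 and 9.48, 9.52 and 9.36 in PK25, against 9.78, 9.73 and 9.81 in V22. The PK25 arrays were below all others, which were at 10.07, 9.58 and 9.83 in V8, 9.94, 9.89 and 9.99 in V17 and 10.01, 9.98 and 9.91 in V22 of the other prefix. PK7 was higher than V22 by 0.38 (limma adjusted p = 0.0237), a call lost without any 1 of the V22 arrays (0.0534 to 0.0782) or PK7 replicate 2 (0.127), and PK25 at -0.32 did not pass (0.209). MAP1LC3A was higher in PK19, at 7.09, 6.68 and 6.91 against 6.55, 6.54 and 6.33 in V22 (0.42; adjusted p = 0.0258). The call was lost without V22 replicate 6 (0.135), PK19 replicate 1 (0.156) or PK19 replicate 3 (0.0759). The other groups gave 6.59, 7.05 and 6.64 in PK7, 6.62, 6.67 and 6.65 in PK25, 6.43, 6.18 and 6.52 in V8, 6.72, 6.86 and 6.73 in V17 and 6.67, 6.67 and 6.60 in V22 of the other prefix. MAP1LC3B, the most widely used autophagosome marker, did not pass by its own dim probe set, at 0.35 in PK7 (0.0885) and 0.39 in PK19 (0.0539). A brighter probe set that it shares with its near-copy MAP1LC3B2 was higher in PK7 (0.66; 0.000167), in PK19 (0.57; 0.000645) and in V8 (0.46; 0.00908). GABARAP did not pass in a parkin clone, at -0.02 in PK7, 0.11 in PK19 and -0.03 in PK25, and was lower in V8 (-0.38; 0.0361), a call lost without V8 replicate 2 (-0.25; 0.201), V8 replicate 3 (0.0645) or any 1 of the V22 arrays (0.0683 to 0.127).

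Of the genes of autophagosome formation, WIPI1, BECN1 and WIPI2 passed. WIPI1, which binds the lipid made by the class III phosphoinositide kinase on the forming membrane, read 9.54, 9.77 and 9.55 in PK7 and 9.99, 10.09 and 9.95 in PK19, against 9.02, 8.73 and 9.03 in V22 and 9.00, 9.37 and 9.02 in PK25. V8 gave 9.44, 8.81 and 9.18, V17 gave 8.96, 8.48 and 9.06, and V22 of the other prefix gave 9.01, 8.65 and 8.85, so that the PK7 and PK19 arrays were above all others. PK7 was higher by 0.70 ± 0.16 (SE; limma adjusted p = 0.00504) and PK19 by 1.08 (6.77e-05), or 2.12-fold. Less the V8 difference, WIPI1 did not pass in PK7 (0.39, adjusted p = 0.415) or PK19 (0.78, 0.0506). BECN1 encodes beclin-1, a subunit of that kinase complex. It read 8.90, 9.13 and 9.02 in PK7 and 8.81, 8.89 and 8.91 in PK19, against 8.57, 8.46 and 8.53 in V22 and 8.60, 8.57 and 8.48 in PK25, with differences of 0.50 (0.000298) and 0.35 (0.00648). On the other prefix, however, V8 was at 8.96, 8.71 and 8.79, V17 at 8.99, 8.94 and 8.93 and V22 at 8.89, 8.85 and 8.96, which overlapped PK7 and PK19. V22 was lower on the second prefix by 0.38 on the log2 scale (-0.38; adjusted p = 0.175), about as much as PK19 was above it. WIPI2, which recruits the ATG16L1 complex, was higher in PK19 (0.43; 0.00127). It was also higher in V8 (0.29; 0.0405), which was lost without any 1 of V8 replicates 1 and 3 or V22 replicates 1 and 2 (0.105 to 0.144). The initiating kinase ULK1, the conjugation factors ATG5 and ATG7 and the lipid scramblase ATG9A did not pass, at 0.06 to 0.22 in PK7 and -0.05 to 0.32 in PK19.

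**Figure D3:**
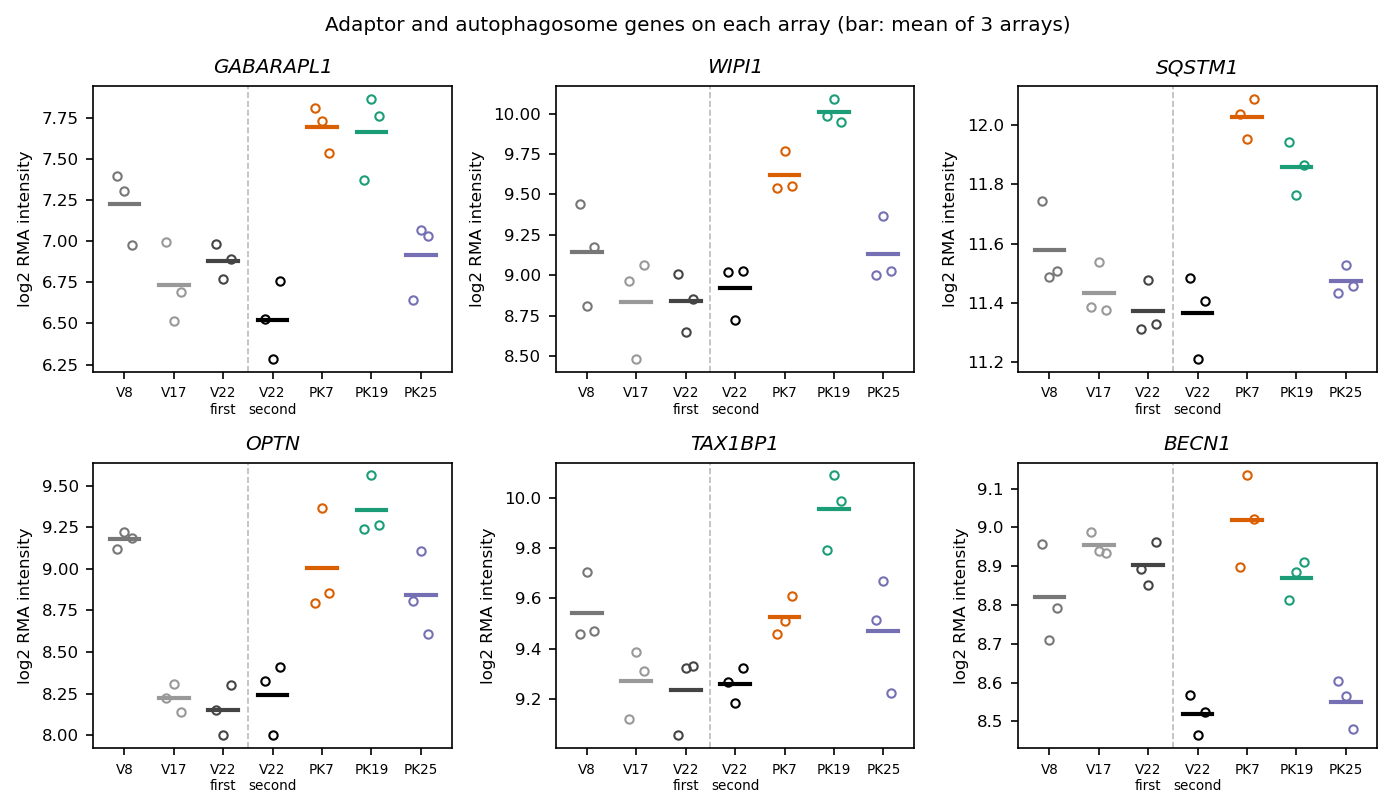
Log2 RMA intensity (vertical axes, each gene on its own scale) of 6 adaptor and autophagosome genes on each of the 21 arrays by clone, with a bar at each mean of 3 arrays; the dashed line separates the 2 scanner file prefixes. SQSTM1 and WIPI1 are higher on every PK7 and PK19 array than on any other, OPTN is as high in the vector clone V8 as in the parkin clones, and BECN1 on the vector arrays left of the line overlaps PK7 and PK19.

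The 250 bases before the RefSeq start (build GRCh38.p14) are shown for GABARAPL1, WIPI1 and BECN1, each called higher in PK7 and in PK19, and for TOMM22, the member furthest below V22 in PK7. They are on chr12:10212627-10212876 (plus strand), chr17:68457497-68457746 (minus strand), chr17:42823880-42824129 (minus strand) and chr22:38681707-38681956 (plus strand), and RefSeq gives a single start for each. Capitals mark matches to 3 motifs searched on both strands: CACGTG, the E-box core read by TFEB and MITF, TGACNNNGC, the core of the antioxidant response element, and CCGGAAG, an ETS-type motif common in promoters of mitochondrial genes. The motifs share no match in these 4 windows.
GABARAPL1: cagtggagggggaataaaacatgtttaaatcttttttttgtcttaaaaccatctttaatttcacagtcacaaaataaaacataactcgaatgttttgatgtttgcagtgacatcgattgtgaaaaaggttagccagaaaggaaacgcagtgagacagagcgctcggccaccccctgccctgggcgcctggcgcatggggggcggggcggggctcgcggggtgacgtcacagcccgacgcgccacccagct
WIPI1: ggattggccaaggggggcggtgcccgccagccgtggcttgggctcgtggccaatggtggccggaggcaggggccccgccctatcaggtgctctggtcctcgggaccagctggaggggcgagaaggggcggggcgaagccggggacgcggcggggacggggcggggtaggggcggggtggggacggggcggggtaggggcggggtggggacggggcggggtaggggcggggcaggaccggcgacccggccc
BECN1: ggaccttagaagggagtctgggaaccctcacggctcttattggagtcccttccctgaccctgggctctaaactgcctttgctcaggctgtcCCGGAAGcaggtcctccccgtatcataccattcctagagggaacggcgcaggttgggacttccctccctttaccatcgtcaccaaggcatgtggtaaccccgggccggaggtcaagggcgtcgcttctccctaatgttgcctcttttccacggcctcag
TOMM22: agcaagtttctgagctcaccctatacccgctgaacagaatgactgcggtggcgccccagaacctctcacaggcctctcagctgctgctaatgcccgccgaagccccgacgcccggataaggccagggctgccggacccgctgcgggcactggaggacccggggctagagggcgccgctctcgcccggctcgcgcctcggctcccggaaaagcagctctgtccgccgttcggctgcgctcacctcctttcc
The windows of GABARAPL1, WIPI1 and TOMM22 held none of the 3 motifs, and that of BECN1 held 1 ETS-type match. RefSeq gave windows for 43 of the members, 62 windows in all. The E-box was in 4.84% of these windows (those of TBK1, TOMM20 and VDAC2) and in 6.34% of all 35116 windows of the same length, and the antioxidant core was in 4.84% (CALCOCO2, MAP1LC3B and PARK7) and in 10.9%. The ETS-type motif was in 25.8% of the member windows, of 14 members, and in 8.52% of all windows. These are matches of letters and not binding sites.

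Of the dynamics and transport genes, DNM1L alone passed. It encodes DRP1, the dynamin that cuts mitochondria, and read 9.73, 9.81 and 9.89 in PK19 against 9.32, 9.23 and 9.40 in V22 (0.50 ± 0.10, SE; limma adjusted p = 0.00154). PK25, at 9.78, 9.81 and 9.58, was also above every V22 array (0.41; 0.0533), and PK7 was at 0.29 (0.0576). The largest difference was again in the vector clone V8, at 9.89, 9.90 and 9.90 against 9.22, 9.11 and 9.28 (0.70; 0.000162). The fusion GTPases MFN1, MFN2 and OPA1, the outer membrane fission adaptor FIS1 and the Miro GTPases RHOT1 and RHOT2, which tie mitochondria to motor proteins, did not pass in any clone. MFN1 and MFN2, whose proteins are parkin substrates, were at 0.04 and -0.10 in PK7 and at 0.34 and 0.13 in PK19.

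Whether the clones that carry parkin differ from those that do not was tested with the clone as the replicate, 3 parkin clone means against 3 vector clone means, after each array of the first prefix was shifted by the V22 difference between the prefixes. No member passed, and 1 of all probe sets did (0.00371%). Of the members, GABARAPL1, WIPI1 and MAP1LC3A had an unadjusted limma p under 0.05, as did 14.1% of all probe sets. GABARAPL1 was 0.84 ± 0.24 higher (SE, n = 3 clones each; limma adjusted p = 0.307), with clone means of 7.42 ± 0.44 (SD) against 6.59 ± 0.25. WIPI1 was 0.56 higher (adjusted p = 0.347), and MAP1LC3A 0.34 higher (adjusted p = 0.329). After the shift, GABARAPL1 and MAP1LC3A were higher in all 3 parkin clones than in all 3 vector clones. USP15 was lower in all 3 parkin clones (mean difference -0.22), and the clone means of the other 44 members overlapped. Before the shift, GABARAPL1 averaged 7.23 in V8 and 6.91 in PK25, and MAP1LC3A averaged 6.77 in V17 and 6.65 in PK25. The USP15 means of V22 (9.05, second prefix) and PK19 (9.03) lay close together, and V8 was 0.46 above V22. TOMM22 was at -0.38 ± 0.28 (SE) and SQSTM1 at 0.33 ± 0.15 (SE). The same V22 arrays set the shift and are 1 of the 3 vector clones, and V22 between the prefixes differed in 0 members (0.0297% of all probe sets, and 5 members at an unadjusted p under 0.05). V17 differed from V22 in 0% of all probe sets and V8 in 8.00%. The spread between vector clones therefore rests mainly on V8, and the 3 vector clones may understate it.

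**Figure D4:**
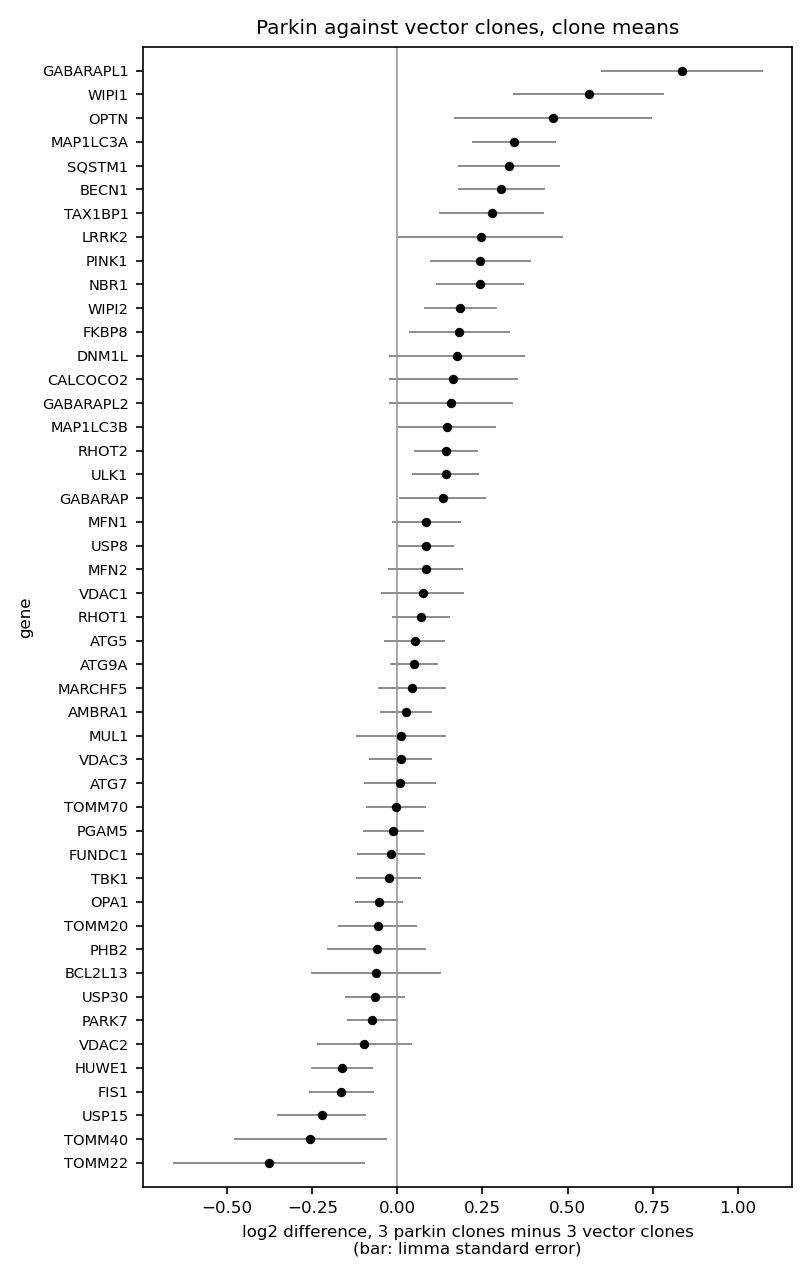
Log2 difference of each member (rows, sorted) between the means of the 3 parkin clones and of the 3 vector clones (points), with the limma standard error as a bar. GABARAPL1 at 0.84 and WIPI1 at 0.56 lie farthest to the right and TOMM22 at -0.38 farthest to the left, and no member passed an adjusted p under 0.05.

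The parkin clones also differed among themselves. A moderated F test over PK7, PK19 and PK25, which does not use V22, called 18 of the 47 members, in a series in which 23.6% of all probe sets and 43.4% of the genes above 7 were called (36.4% of the 44 members above 7). By role, 5 of 7 outer membrane genes, 4 of 6 adaptor genes, 3 of 5 ATG8 genes, 2 of 5 receptors, 2 of 7 autophagosome genes, 1 of 4 kinases, 1 of 6 ligases and deubiquitinases and 0 of 7 dynamics genes were called. The largest F values were those of CALCOCO2 (F = 23.2, limma adjusted p = 0.000129), GABARAPL2 (23.0; 0.000135), TOMM40 (21.6; 0.000186), LRRK2 (21.4; 0.000195) and TOMM22 (21.1; 0.000210). They reflected different clones. CALCOCO2 was lower in PK7 than in PK19 (-0.57; adjusted p = 0.000262) and PK25 (-0.57; 0.000331), and TOMM22 was lower in PK7 than in PK19 (-1.14; 0.000123) and PK25 (-0.79; 0.00424). GABARAPL2 was higher in PK7 (0.70; 0.000161) and PK19 (0.58; 0.000887) than in PK25, and LRRK2 was higher in PK19 than in PK25 (0.73; 0.000142) and lower in PK7 than in PK19 (-0.56; 0.00182). GABARAPL1 was higher in PK7 (0.78; 0.00222) and in PK19 (0.75; 0.00261) than in PK25, and PK7 and PK19 differed by 0.03 ± 0.16 (SE; 0.966). SQSTM1 was higher in PK7 (0.55; 0.000430) and PK19 (0.38; 0.00841) than in PK25. Of the 18 calls, those of FKBP8, MARCHF5, OPTN, VDAC1, TOMM20, MAP1LC3B, TAX1BP1 and VDAC2 were lost without at least 1 array of a parkin clone, with adjusted p up to 0.175, 0.10, 0.202, 0.124, 0.153, 0.115, 0.0600 and 0.0672 in that order.

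Several members differed in the same direction as their chromosomal neighbours. For each gene the median difference of the 50 nearest genes on the chromosome with a mean log2 intensity above 7 was taken, with gene order from RefSeq. TOMM22 and BCL2L13 lie on chromosome 22, where 147 of 207 such genes (71.0%) were lower in PK7 with a median of -0.54; the chromosome's median was -0.004 in PK19, -0.25 in PK25, -0.21 in V8 and 0.02 in V17. After the neighbours' median was subtracted, TOMM22 in PK7 was at -0.56 by its brighter probe set (limma adjusted p = 0.0211), and BCL2L13 was at 0.09 (0.735), above 0. The second TOMM22 probe set was at -0.85 in PK7 before subtraction, beside neighbours at -0.54. Neighbours were those of the named gene, and probe positions were not read. The identifier of the brighter TOMM22 probe set lies between those of the chromosome 10 genes MARCHF5 and YME1L1. That of VDAC2 lies between those of the chromosome 2 genes EPCAM and VAMP8. Whether the subtracted neighbours are those of these 2 probe sets was not tested. TOMM40, on chromosome 19, had neighbours at -0.39 and was at -0.47 after subtraction (0.0192). In V8 the neighbours were raised around members of chromosome 12: GABARAPL1 (0.61), PHB2 (0.52), DNM1L (0.42) and LRRK2 (0.36). OPTN, on chromosome 10, had neighbours at 0.38 in V8 and kept 0.68 (0.0119), while PHB2 came to -0.06 (0.784), DNM1L to 0.25 (0.0727) and LRRK2 to 0.19 (0.285). In PK25 the neighbours of GABARAPL2 on chromosome 16 were at -0.32, and its own difference after subtraction was 0.01. Of the members higher in PK7, the neighbours of SQSTM1 were at -0.06, of OPTN at -0.05, of WIPI1 at -0.15 and of BECN1 at 0.05. GABARAPL1, with neighbours at 0.32, kept 0.85 (0.00108), and GABARAPL2, with neighbours at 0.17, came to 0.19 and lost its call (0.291). Of the 10 members higher in PK19, GABARAPL1, TAX1BP1, OPTN, DNM1L, WIPI2 and LRRK2 had neighbours at 0.13 to 0.21 and the other 4 at -0.06 to 0.05, and each kept its call after subtraction. The F test among parkin clones lost its calls of GABARAPL2 (F = 4.23; 0.101) and BCL2L13 (4.24; 0.101) after subtraction. It also lost those of TAX1BP1 (F = 4.44, limma adjusted p = 0.091), VDAC2 (2.93, 0.196), MAP1LC3B (2.38, 0.262), TOMM20 (2.69, 0.222), MARCHF5 (3.56, 0.142) and VDAC1 (1.61, 0.403). CALCOCO2 lost its calls in PK7 (-0.22, limma adjusted p = 0.133) and in V8 (-0.20, 0.237). USP15, GABARAP and WIPI2 lost theirs in V8 too. Subtraction also added calls. These were PHB2 (-0.39, 0.00421) and WIPI2 (0.23, 0.0443) in PK7, MFN1 (0.35, 0.0152) and FKBP8 (0.44, 0.0464) in PK19, and USP30 in V8 (-0.39, 0.0105). The part of neighbouring genes in these differences was not tested beyond this subtraction.

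**Figure D5:**
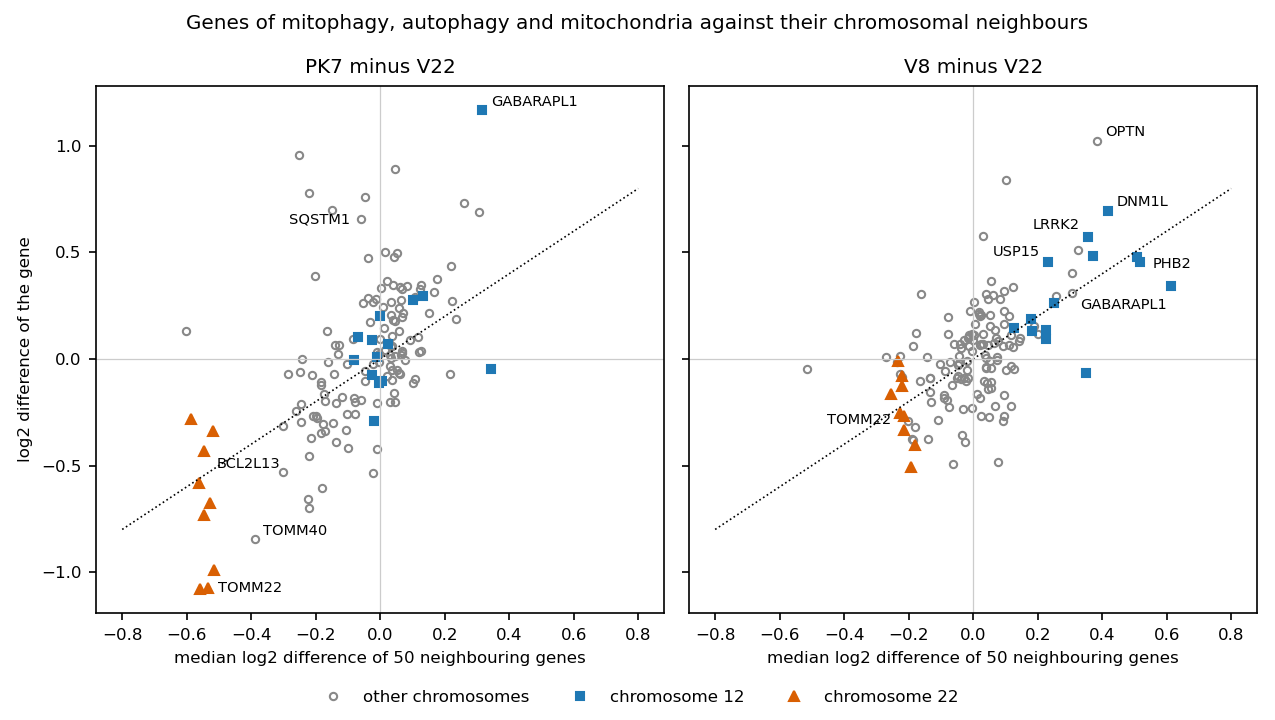
Log2 difference from V22 of each member and of the other listed genes (vertical axis) against the median log2 difference of its 50 neighbouring expressed genes (horizontal axis), for PK7 (left) and the vector clone V8 (right), with the line of equality dotted. In PK7 the genes of chromosome 22 (triangles) lie at neighbour medians near -0.54 and GABARAPL1 lies far above the line. In V8 several genes of chromosome 12 (squares) lie near the line and OPTN lies above it. USP30 (-0.07, neighbours at 0.35) and GABARAPL1 (0.34, neighbours at 0.61), also on chromosome 12, lie below it in V8.

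In the wider pathway lists, the share called in PK7 was 25.8% to 32.0% and in PK19 10.5% to 32.3%, beside 28.9% and 24.9% of all genes above 7. The lists themselves were not limited to genes above 7. Of 31 other genes of the autophagy machinery, 7 were higher and 1 lower in PK7, 7 higher and 3 lower in PK19, and 0 called in PK25, with medians of 0.01, 0.13 and -0.02. PIK3C3, the catalytic subunit of the phosphoinositide kinase that works with beclin-1, was 1.45 higher in PK19 (limma adjusted p = 1.09e-06) and at 0.37 in PK7 (0.133); its neighbours on chromosome 18 were at 0.45 in PK19, and 0.99 was left after subtraction (6.6e-05). MITF, a transcription factor of lysosomal genes of the TFEB family, was higher in PK7 (0.89; 0.000145) and PK19 (0.84; 0.000224) and at -0.30 in PK25 (0.431). ULK2, a relative of ULK1, was higher in PK7 (0.48; 0.00189) and PK19 (0.86; 2.81e-06). Its mean log2 intensity was only 4.63, within the dimmest 30% of probe sets. That of MITF was 6.33, also below 7. EPG5, which helps autophagosomes fuse with lysosomes, was higher in PK7 (0.50; 0.00867) and PK19 (0.80; 0.000119), and likewise in the vector clone V8 (0.84; 0.000217). Its neighbours, also on chromosome 18, were at 0.47 in PK19, and after subtraction it was at 0.29 and lost that call (0.0997).

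Of 29 other mitophagy and import factors, 2 were higher and 6 lower in PK7, 5 higher and 0 lower in PK19, and 1 was lower in PK25. BNIP3 and BNIP3L, outer membrane receptors of mitophagy induced by low oxygen, were the highest: BNIP3 by 1.58 in PK19 (limma adjusted p = 0.00169; 0.78 in PK7, 0.128), and BNIP3L by 0.73 in PK7 (0.0113) and 0.82 in PK19 (0.00514). In PK25 they were at 0.002 and -0.05. V22, the reference, was itself at -0.79 for BNIP3 and -0.39 for BNIP3L on the second prefix less the first (adjusted p = 0.503 and 0.591). BNIP3L in PK7 came to 0.49 after subtraction of its neighbours and lost its call (0.124). UFD1, a cofactor of the segregase VCP, was lower in PK7 (-0.67; 1.63e-05) and higher in PK19 (0.47; 0.000579), and TIMM50, of the inner membrane import complex, was lower in PK7 (-0.66; 0.00101). UFD1 is on chromosome 22, and in PK7 it came to -0.17 after subtraction (0.145). The gene lower in PK25 was NIPSNAP1 (-0.58; 0.0125), also on chromosome 22, named here because it was the only call. It was about as low in the vector clone V8 (-0.51; 0.00657), and its PK25 call was lost after subtraction (-0.38; 0.0874).

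Of 25 other dynamics and cristae factors, 1 was higher and 7 lower in PK7, 1 higher and 2 lower in PK19, and 0 called in PK25. MIEF1, a receptor for DRP1, and SAMM50, of the outer membrane assembly complex, were lower in PK7 (-1.08, limma adjusted p = 3.12e-06; -0.99, 3.61e-05), and both are on chromosome 22. MICOS13, of the cristae-organising complex, was lower in PK7 (-0.60; 0.00394) and GDAP1 in PK19 (-0.55; 0.0124). GDAP1 was also lower in the vector clone V8 (-0.48; 0.0471). Of 19 genes of mitochondrial content, 2 were higher and 3 lower in PK7, 1 was higher and 1 lower in PK19, and 0 were called in PK25, with medians of -0.08, 0.09 and -0.06. PPARGC1A, the coactivator PGC-1α of mitochondrial biogenesis, was higher in PK7 (0.96, limma adjusted p = 0.00977). Its mean log2 intensity was 5.71, below the median of 6.26 over the probe sets. TFAM, which packages mitochondrial DNA, was lower in PK7 (-0.70, limma adjusted p = 0.00925). The ATP synthase subunit ATP5F1A was higher in PK19 (0.70; 0.000122) and the complex I subunit NDUFV1 was lower (-0.53; 0.000886). After subtraction of neighbours ATP5F1A, also on chromosome 18, was at 0.14 (0.586) and NDUFV1 at -0.25 (0.0488).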

How the data were processed

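RNA of 21 arrays was measured on Affymetrix arrays. The values are linear intensities that the authors deposited, and the submitters' processing notes name RMA, with no version given in the sources used here. They were taken to log2 without a filter and fitted with limma (version 3.58.1, R 4.3.3), 1 mean per clone and scanner file-name prefix, in 26947 probe sets. P-values were adjusted by Benjamini-Hochberg over all probe sets and called under 0.05. Gene names came from the platform annotation: 19305 probe sets named 1 gene, 1750 several, 5892 were not listed, and 31 identifiers of probe sets with 1 gene had no RefSeq match. The fit was tested on simulated data. Precision is limited by the number of arrays.

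The members and lists were chosen with earlier results of these data known. By rule, values on every array are given for members called in a parkin clone with an absolute log2 difference of at least 0.5, the 5 with the largest F, PINK1, and the 3 with the smallest p for parkin against vector. Array values of BECN1, BCL2L13 and DNM1L were added after their values were seen. From each other list up to 4 genes with the largest called differences are named. Alternatives were scaling, a filter on the 30% dimmest probe sets, the variance model, neighbouring genes, the samples in the fit, the set number as a block, a fold of 1.5 and single arrays or clones left out. The difference less that of V8, the second probe sets and the chromosome 22 counts were added after seeing the data.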

Additional observations from a re-analysis of the deposited data

Results flagged for a closer look

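The parkin clones differed among themselves in 18 members by limma's moderated F test. The F values were 23.2 for CALCOCO2, 23.0 for GABARAPL2, 21.6 for TOMM40, 21.4 for LRRK2, 21.1 for TOMM22, 17.4 for SQSTM1, 17.3 for BCL2L13, 15.8 for BECN1, 14.9 for GABARAPL1 and 14.4 for WIPI1. They were 9.72 for TAX1BP1, 9.37 for VDAC2, 7.67 for MAP1LC3B, 7.16 for TOMM20, 6.51 for MARCHF5, 6.40 for VDAC1, 5.99 for OPTN and 5.81 for FKBP8. With the neighbouring genes subtracted, those of GABARAPL2 (4.23) and BCL2L13 (4.24) no longer passed. Nor did those of TAX1BP1 (4.44), VDAC2 (2.93), MAP1LC3B (2.38), TOMM20 (2.69), MARCHF5 (3.56) and VDAC1 (1.61).

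The difference of a parkin clone from V22 departed from that of the vector clone V8 in 5 members. By clone this was 3 of 47 members for PK7, 4 for PK19 and 1 for PK25. Of all probe sets, 5.21%, 6.22% and 1.96% were called in the same comparisons. For GABARAPL1 the departure was 0.82 in PK7 and 0.80 in PK19, and for BECN1 it was 0.58 (limma adjusted p = 0.00677) and 0.43 (0.0352). MAP1LC3A departed by 0.69 in PK19 (0.0208), and CALCOCO2 by 0.61 in PK19 (0.00887) and 0.61 in PK25 (0.0224). PHB2 departed by -0.50 in PK7 (0.0348). These tests set 4 groups of 3 arrays against each other and were chosen after the data were seen. Each departure also contains the change of V22 between the prefixes, second less first. This change was -0.36 for GABARAPL1, -0.38 for BECN1, -0.17 for MAP1LC3A, -0.10 for CALCOCO2 and 0.02 for PHB2. BECN1 itself averaged 8.87 in PK19 and 8.82 in V8.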

How the results depend on the processing

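Of 46 calls for named comparisons, 25 held under all alternatives and 21 were lost under at least 1, in 105 of 632 recomputed values. At a 1.5-fold minimum the called members came to 6 in PK7, 5 in PK19 and 2 in V8. PK25 had 2 called members in place of 0 with quantile normalization, without the dimmest 30% of probe sets and with trended, robust variance. V8 had 5 with arrays centred on their medians, 2 with neighbours subtracted, 5 with only its own groups in the fit, and between 4 and 8 when 1 array was left out (4 without V22 replicate 1, 5 without V22 replicate 2 or V8 replicate 3). The F test among parkin clones called 11 with only their arrays in the fit. With neighbours subtracted, BCL2L13 in PK7 changed sign to 0.0890 and PHB2 in V8 to -0.0620. When the set number entered as a replicate block, V8 had 5 called members, V17 had 0 and the F test called 13. Parkin against vector, with this replicate block and arrays as observations, called 5, WIPI1 among them (0.65, limma adjusted p = 0.0124). However, arrays of 1 clone are not replicates of the treatment. Vector and parkin arrays that share a set number also differ in prefix, so this comparison does not separate treatment from prefix. With clones as replicates 0 were called when any 1 clone was left out. The labels do not say what a set number marks. Deviations of same-numbered arrays correlated at 0.0591 to 0.216 on the first prefix, above all differently numbered pairs (-0.141 to 0.0533), which hints at pairing there, but not every pair was above 0.1. Among parkin clones the ranges overlapped (-0.0917 to 0.381 against -0.365 to 0.323). Precision is limited by 3 arrays per clone and 3 clones per treatment.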
